A study of Homo sapiens with 42 samples.

Results

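Regions of open chromatin assigned to long intergenic noncoding RNAs with a LINC symbol were examined in 4 lung adenocarcinoma lines with a mutant EGFR gene. A member was any region of the deposited annotated tables whose gene symbol was LINC followed by digits, with LINC01450 left out. PC9 had 3284 such regions of 69565 annotated, H1975 3876 of 76952, HCC827 1445 of 30709 and HCC2935 3421 of 65264. Regions within 1 kb of an annotated start, called promoter regions here, numbered 585, 622, 277 and 498. The others were mostly distal intergenic (1341, 1613, 553 and 1422) or intronic (896, 1092, 440 and 1054), and 188, 230, 65 and 195 were exonic. Together the 4 tables named 1323 LINC genes, of which 486 had a region in every line and 256 in 1 line only. A promoter region was seen for 537 genes, for 168 of them in every line. The symbol is the nearest gene that the authors' annotation gives, so a distal region need not belong to that RNA.

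ATAC-seq, where a transposase cuts and tags open chromatin, was run on 42 libraries forming 14 groups of 3, described in the labels as biological triplicates. Control cells grew drug free for 21 days and received DMSO for 3 days. Drug tolerant persister (DTP) cells had spent 24 days in 500 nM osimertinib, an inhibitor of mutant EGFR. Combo cells received 500 nM osimertinib for 21 days followed by 3 days of 150 nM AZD5153, a BET bromodomain inhibitor, with no statement in the labels on whether osimertinib went on. AZD5153 cells, made in PC9 and H1975 only, received 150 nM AZD5153 for 3 days after 21 drug-free days. The lines are established cultures from ATCC, and all cells of a line share its genotype.

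Long intergenic noncoding RNAs are transcribed by RNA polymerase II from their own promoters, are mostly spliced and polyadenylated, and are often found in few cell types. Some act in cis on a nearby gene, some bind proteins or microRNAs, and for many only the act of transcription or the enhancer within the locus is known to matter. Persister cells survive a targeted drug without a resistance mutation, and BET proteins bind acetylated histones at enhancers and promoters.

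Levels are given in CPM, read counts scaled to the size of the library after TMM normalisation, and since every region is 502 bases wide they can be set side by side per length. Changes are log2 fold changes ± SE from edgeR's quasi-likelihood test, with a call where the p adjusted over all tested regions of the line (Benjamini-Hochberg) was under 0.05. All LINC regions entered the test in PC9, H1975 and HCC2935, and 1435 of 1445 (274 of 277 promoter regions) in HCC827. Library totals ranged from 3989287 to 5193390 counts in PC9, 6200672 to 10062505 in H1975 and 1724680 to 4242868 in HCC827, with 3968690 to 8066287 for HCC2935. Libraries of 1 group varied by 0.961 to 1.05 times the variance of counting alone in PC9 and by 0.968 to 1.26 times in H1975, so that p-values there measure little more than counting. The ratio was 1.18 to 1.83 in HCC2935 and 1.21 to 9.56 in HCC827. Counts of LINC regions called in a comparison that change by more than 1.5 times when the libraries of a group are summed and given the dispersion of HCC2935 are therefore named beside the result. Regions are named, and called the largest or those that changed most, among called regions with groups that did not overlap and a mean above the median of the line, 1 to a gene. Regions outside that choice can have larger changes, as 1 of LINC02615 in H1975 does (-6.30 in DTP cells). Promoter regions of KRT8, a keratin of simple epithelia, summed to 109 to 267 CPM over all libraries and those of NKX2-1, the lung lineage factor, to 10.1 to 64.8. No promoter region of PTPRC, CD3E or VWF, markers of blood and endothelial cells, was in any table. PECAM1, also an endothelial marker, had promoter regions summing to 5.76 to 14.3 CPM in PC9 and 1.12 to 8.5 CPM in H1975 and none in the other tables, and COL1A1 of fibroblasts gave 21.5 to 54.3 CPM. Of the alveolar genes, NAPSA had none in PC9 and HCC827 and SFTPB none in PC9 and HCC2935.

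Promoter sequences of 924 of the 1323 LINC genes were held in the RefSeq table for GRCh38.p14, each from 250 bases before to 50 bases after a start. The 7 shown here belong to promoters whose levels are described below, in the order LINC01133, LINC00445, LINC00941, LINC01638, LINC01843, LINC01213 and LINC00885. They lie at chr1:159960974-159961273, plus strand; chr13:35697274-35697573, plus strand; chr12:30795431-30795730, plus strand; chr22:27224630-27224929, minus strand; chr5:134506302-134506601, plus strand; chr3:150238269-150238568, plus strand; and chr3:196142386-196142685, plus strand. Capitals mark a match to the TEAD motif GGAATG, read on both strands, which begins at base 214 in LINC00445 and at base 214 in LINC00885. The other 5 windows hold none of the 5 motifs searched.
LINC01133: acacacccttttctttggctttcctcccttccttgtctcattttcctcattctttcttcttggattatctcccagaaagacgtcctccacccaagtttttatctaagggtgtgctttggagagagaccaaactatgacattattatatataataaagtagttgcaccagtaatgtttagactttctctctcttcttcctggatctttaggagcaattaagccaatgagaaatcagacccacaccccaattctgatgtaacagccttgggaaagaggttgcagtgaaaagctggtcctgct
LINC00445: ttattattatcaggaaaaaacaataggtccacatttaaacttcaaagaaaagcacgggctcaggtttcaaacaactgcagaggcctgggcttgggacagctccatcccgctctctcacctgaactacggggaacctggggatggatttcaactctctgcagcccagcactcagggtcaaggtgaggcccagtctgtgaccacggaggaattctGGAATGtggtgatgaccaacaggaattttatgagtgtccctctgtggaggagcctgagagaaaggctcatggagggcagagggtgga
LINC00941: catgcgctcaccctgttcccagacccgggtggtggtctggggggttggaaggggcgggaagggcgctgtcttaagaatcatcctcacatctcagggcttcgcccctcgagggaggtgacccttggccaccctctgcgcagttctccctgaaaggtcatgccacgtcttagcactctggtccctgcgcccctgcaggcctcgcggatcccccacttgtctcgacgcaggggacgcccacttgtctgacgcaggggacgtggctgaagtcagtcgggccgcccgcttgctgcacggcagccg
LINC01638: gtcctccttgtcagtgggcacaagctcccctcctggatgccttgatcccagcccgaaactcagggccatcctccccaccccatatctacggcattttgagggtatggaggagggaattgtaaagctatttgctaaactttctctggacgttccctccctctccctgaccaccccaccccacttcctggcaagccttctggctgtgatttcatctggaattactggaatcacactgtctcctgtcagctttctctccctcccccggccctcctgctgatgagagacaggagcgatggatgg
LINC01843: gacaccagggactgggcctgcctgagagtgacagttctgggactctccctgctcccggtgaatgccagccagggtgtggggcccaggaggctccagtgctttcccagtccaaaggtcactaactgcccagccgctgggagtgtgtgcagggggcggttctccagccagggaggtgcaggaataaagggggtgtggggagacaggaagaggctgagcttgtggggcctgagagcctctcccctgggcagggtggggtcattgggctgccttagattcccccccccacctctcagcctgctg
LINC01213: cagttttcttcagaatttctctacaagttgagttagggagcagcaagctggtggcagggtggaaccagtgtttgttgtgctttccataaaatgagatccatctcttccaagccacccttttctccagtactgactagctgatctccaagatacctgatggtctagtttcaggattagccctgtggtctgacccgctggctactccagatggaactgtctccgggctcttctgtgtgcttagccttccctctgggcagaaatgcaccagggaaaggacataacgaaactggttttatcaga
LINC00885: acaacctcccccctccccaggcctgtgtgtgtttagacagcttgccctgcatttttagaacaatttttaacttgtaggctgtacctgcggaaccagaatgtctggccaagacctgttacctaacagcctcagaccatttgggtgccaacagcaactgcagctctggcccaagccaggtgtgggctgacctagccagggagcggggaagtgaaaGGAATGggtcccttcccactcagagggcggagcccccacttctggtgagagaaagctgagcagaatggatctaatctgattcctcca

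Over 1742 promoter windows of LINC genes in the RefSeq table the median GC content was 47.7% with 4 CpG dinucleotides, against 58.7% and 14 over all 35116 windows. These LINC windows leave out chromosome 8, which all windows include, and are not limited to genes with a region here. The AP-1 motif TGANTCA was in 13.5% of LINC windows and 7.71% of all windows, and the TEAD motif GGAATG in 18.4% and 14%. The TATA motif TATAAA was in 16.2% and 11.5%, the forkhead motif TGTTTAC in 4.65% and 3.42%, and the CRE motif TGACGTCA in 1.15% and 1.85%. A match is a run of letters and not a bound site.

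In untreated cells LINC promoters were a little less open than promoters at large. Their library medians were 9.13 to 9.67 CPM in PC9 control cells, against 10.2 to 10.4 over all promoter regions. The same medians were 7.96 to 8.21 and 8.63 to 8.74 in H1975, 7.98 to 8.30 and 9.08 to 9.83 in HCC2935, and 15.3 to 19.8 and 16.5 to 24 in HCC827. These are descriptions of the tables. The most open LINC promoter was that of LINC00663 in PC9, at 99.1, 117 and 110 CPM in control and 114, 114 and 108 CPM in DTP libraries, which overlapped (0.03 ± 0.06, adjusted p = 0.706).

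In H1975 the most open LINC promoter was that of LINC02912, 207 kb from MYC on chromosome 8, with 190, 188 and 203 CPM in control, 260, 260 and 262 in DTP and 562, 640 and 517 in AZD5153 libraries. Its rise under AZD5153 was 1.56 ± 0.05 (adjusted p = 3.2e-87) and 0.33 once the median of its 10 Mb bin had been removed. The DTP rise of 0.43 ± 0.05 became 0.13. In HCC2935 it was LINC01220, 11.7 kb from FOS, an AP-1 subunit gene, which went from 95.4, 99.5 and 81.1 to 61.7, 56.9 and 67 CPM (-0.58 ± 0.10, adjusted p = 6.45e-06), and the regional median took this change to -0.01. In HCC827 it was LINC01617, inside UBE2W on chromosome 8, at 117, 97.9 and 159 CPM in control libraries and 134, 119 and 160 CPM in DTP libraries (0.15, adjusted p = 0.756 with the block).

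DTP cells of 3 lines differed from control cells at many LINC regions. The shares higher and lower were both larger among LINC promoters than among all promoters. In PC9, 113 LINC promoters were called higher and 95 lower, which is 19.3% and 16.2%, where all promoter regions gave 15.1% and 11%. Of the other LINC regions 579 were higher and 751 lower, 21.5% and 27.8%, against 17.3% and 29.5% of all other annotated regions. Over all 126506 regions tested in PC9 the shares were 15.4% and 16.4%. In H1975, 182 promoters were higher and 197 lower, 29.3% and 31.7% against 26.8% and 23.1% of all promoter regions. Of the other LINC regions there 861 were higher and 1570 lower, 26.5% and 48.2%, against 25.2% and 44.8% of all other annotated regions and 24.9% and 27% of all regions tested. In HCC2935, 123 promoters were higher and 86 lower, 24.7% and 17.3% against 21.2% and 11.9%, and 803 and 794 other regions, 27.5% and 27.2%, against 25.4% and 26.4% of all other annotated regions and 18.7% and 18.6% of all regions. The regions tested include many with no annotation, so the shares of promoters and of other annotated regions are the nearer background. The median change of LINC promoters was -0.01 in PC9, 0.01 in H1975 and 0.13 in HCC2935, beside 0.05, 0.05 and 0.13 over all promoters. With libraries summed, the calls of PC9 dropped from 1538 to 976. These shares are set against their background without a test.

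**Figure D1:**
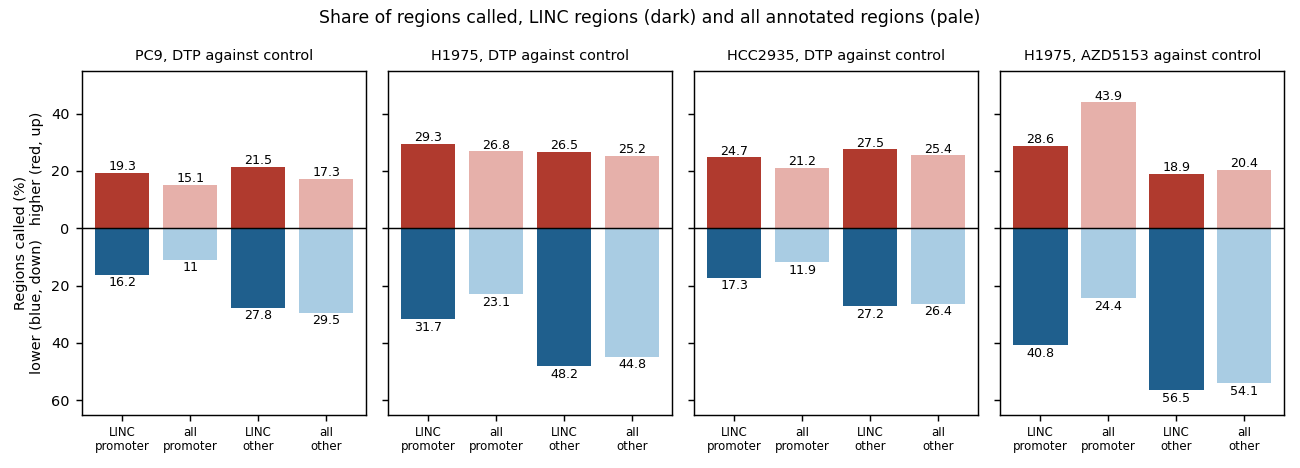
Bars show the percent of tested regions called higher and lower, for LINC promoters, all promoters, other LINC regions and other annotated regions, in 4 comparisons. For DTP against control in PC9 19.3% of LINC promoters were higher and 16.2% lower, against 15.1% and 11% of all promoters. For AZD5153 against control in H1975 28.6% were higher and 40.8% lower, against 43.9% and 24.4%.

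The PC9 promoter with the largest rise in DTP cells was LINC01133, which is on a list of LINC RNAs described in lung cancer and lies inside SLAMF9 (chr1:159960632-159961133). Its levels were 2.54, 2.79 and 3.47 CPM in control libraries and 13.1, 20.1 and 13.3 CPM in DTP libraries, 2.37 ± 0.23 on the log2 scale (adjusted p = 3.71e-21). AZD5153 alone left it at 1.91, 2.32 and 2.35 CPM and the combo at 14.1, 18.3 and 18.6 CPM, so both osimertinib groups were above both others without overlap. The printed window has 41.3% GC and shares 160 bases with this region.

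LINC00445 (chr13:35697237-35697738), 24.5 kb from the neuronal scaffold gene NBEA, rose with each drug. It read 0.953, 2.28 and 1.49 CPM in control, 7.05, 8.77 and 9.01 in DTP, 6.7, 4.41 and 6.1 in AZD5153 and 15.1, 17.2 and 17.6 in combo libraries. The changes from control were 2.33 ± 0.31 in DTP, 1.80 ± 0.34 with AZD5153 and 3.33 ± 0.26 in combo cells, the last being the largest rise of the named promoters for that comparison. LINC00570 (chr2:11391591-11392092) rose by a like amount with either drug, from 3.49, 2.03 and 1.98 CPM to 8.26, 11.6 and 9.01 in DTP (1.97 ± 0.27) and 9.09, 8.12 and 10.6 with AZD5153 (1.92 ± 0.27). LINC02328 (chr14:85934401-85934902) went from a range of 1.24 to 3.18 CPM to one of 5.93 to 11.7 CPM (2.05 ± 0.29).

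The promoters that fell most in PC9 were open in control cells. Being chosen for a large fall and a mean above the median largely set this. LINC00941 (chr12:30795041-30795542), an RNA studied for its part in tumour invasion, went from 21.9, 26.6 and 23.8 to 5.35, 6.96 and 6.01 CPM (-1.99 ± 0.17, adjusted p = 9.78e-27). With AZD5153 alone it stood at 19.9, 17.9 and 19.5 CPM. LINC01119 (chr2:46855371-46855872) lies 46 kb from MCFD2 and 92.2 kb from SOCS5, a suppressor of cytokine signalling. It fell from 40.7, 37 and 37.7 to 10.2, 11.1 and 10.5 CPM in DTP cells (-1.85 ± 0.13). A promoter region of LINC00673 (chr17:72602487-72602988) fell from 25.7, 21.8 and 25.8 to 7.78, 6.7 and 8.01 CPM in DTP, to 9.09, 7.65 and 6.57 with AZD5153 and to 1.95, 1.33 and 2.13 in combo cells. Its changes from control were -1.69 ± 0.16 in DTP and -3.73 ± 0.23 in combo cells, and the combo libraries lay below every other library. LINC02868 (chr1:116693626-116694127) fell from a range of 13.4 to 15.6 CPM to one of 2.75 to 6.56 CPM (-1.67 ± 0.21).

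Away from promoters, the largest PC9 rise was an intronic region of LINC02603 (chr9:94212181-94212682), from 1.27, 2.28 and 1.49 CPM in control to 25.8, 28.1 and 27 CPM in DTP libraries (3.95 ± 0.23, adjusted p = 2.33e-55). AZD5153 alone gave 3.59 to 4.69 CPM there. An intronic region of LINC02537 (chr6:43831123-43831624), 44.6 kb from VEGFA, the angiogenic growth factor gene, went from 0.635, 1.27 and 1.24 to 8.26, 9.54 and 9.01 CPM (3.01 ± 0.34). LINC01333 and LINC01331, neighbours on chromosome 5, moved in opposite directions. The LINC01333 region (chr5:74383240-74383741) rose from a range of 1.98 to 3.3 CPM to one of 16.3 to 18.3 CPM and the LINC01331 region, 1 to 2 kb from its own start (chr5:74538191-74538692), fell from a range of 14.3 to 20.6 CPM to one of 1.94 to 2.75 CPM (-2.90 ± 0.23). An intronic region of LINC02097 (chr17:72097042-72097543), 23.5 kb from SOX9, a transcription factor of lung progenitors, fell from 14.3, 14.5 and 11.4 to 0.972, 2.06 and 2.75 CPM (-2.77 ± 0.26). LINC02205 (chr15:70486404-70486905) fell from a range of 16.6 to 19.5 CPM to one of 1.7 to 3.5 CPM.

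In H1975 the named promoters that rose in DTP cells were nearly closed in control cells, which a choice by the size of the change favours. Their DTP levels stayed below the library medians of LINC promoters in DTP cells, 7.55 to 8.39 CPM. LINC02102 (chr5:6704494-6704995), 8.44 kb from TENT4A, read 0.155, 0.135 and 0.404 CPM in control and 4.35, 4.76 and 4.81 CPM in DTP libraries (4.22 ± 0.40, adjusted p = 4.21e-20). It reached 6.32, 7.14 and 8.44 CPM with AZD5153 and 3.67, 3.62 and 3.15 CPM in combo cells. LINC01638 (chr22:27224324-27224825) rose from 0.309, 0.673 and 0.674 to 2.43, 3.63 and 3.58 CPM in DTP (2.49 ± 0.36) and to 7.74, 8.71 and 7.53 with AZD5153 (3.78 ± 0.30). LINC02874 (chr12:52207779-52208280), between the keratin genes KRT80 (15.8 kb) and KRT7 (25 kb), rose from a range of 0.27 to 1.24 CPM to one of 4.48 to 5.22 CPM (2.43 ± 0.30). LINC01013 (chr6:132131675-132132176) lies 164 kb from MOXD1 and 180 kb from CCN2, a matricellular gene known as a target of YAP. It rose from a range of 0.538 to 0.773 CPM to one of 3.07 to 3.97 CPM (2.39 ± 0.34).

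Other H1975 promoters closed in DTP cells. LINC00184 (chr1:234628050-234628551), 17.9 kb from IRF2BP2, fell from 10.1, 9.28 and 7.82 to 0.512, 0.907 and 0.672 CPM (-3.65 ± 0.26, adjusted p = 5.65e-31). LINC02098 (chr11:128207789-128208290) fell from a range of 10.6 to 13.3 CPM to one of 0.896 to 1.36 CPM and was at 6.44 to 8.44 with AZD5153. LINC01011 (chr6:2986545-2987046), between the protease inhibitor gene SERPINB6 and the quinone reductase gene NQO2, fell from 12.4, 8.88 and 11.3 to 1.02, 1.25 and 1.01 CPM (-3.28 ± 0.23). LINC00293 (chr8:46840573-46841074) fell from 16.9, 19.4 and 18.7 to 0.64, 1.59 and 1.57 CPM and was as low with AZD5153, at 1.42, 0.871 and 2.28.

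The named H1975 regions away from promoters started from or ended at low levels in DTP against control cells, which a choice by the size of the change favours. An exonic region given to LINC01492 (chr9:103364724-103365225) held 3 counts over the 3 control libraries and 302 over the DTP libraries, a ratio of levels of 83.9 (95% counting interval 28.5 to 409). A distal region of LINC01091 (chr4:123986111-123986612), 582 kb from SPRY1, an antagonist of receptor tyrosine kinase signalling, held 3 and 240 counts, a ratio of 66.7 (22.6 to 326). Of the falls, LINC01395 (chr11:129643118-129643619) went from 34.8, 31.6 and 30.7 to 1.66, 0.794 and 1.23 CPM (-4.72 ± 0.17). LINC01214 (chr3:150317431-150317932) went from a range of 13.6 to 18.8 CPM to one of 0.448 to 0.768 CPM (-4.70 ± 0.24). LINC01907 (chr2:230706041-230706542), 6.3 kb from CAB39, went from a range of 25.9 to 34.5 CPM to one of 0.336 to 2.05 CPM (-4.68 ± 0.17) and was low in AZD5153 and combo libraries too, at 2.28 to 3.48 and 1.31 to 2.12 CPM.

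In HCC2935 the 4 named promoters that rose started from low levels, which a choice by the size of the change favours. LINC01140 (chr1:86992724-86993225) read 0.874, 0.591 and 1.25 CPM in control and 6.84, 6.29 and 9.92 CPM in DTP libraries (3.06 ± 0.38, adjusted p = 1.28e-08). LINC01213 (chr3:150238284-150238785) rose from 0.874, 1.48 and 0.626 to 7.79, 8.27 and 7.25 CPM (2.95 ± 0.38). LINC02487 (chr6:167683010-167683511) and LINC01640 (chr22:33116807-33117308) rose by 2.88 ± 0.39 and 2.84 ± 0.36 from 0.295 to 1.31 and 0.939 to 1.18 CPM. LINC01011 (chr6:2986556-2987057), also low in H1975 DTP cells, fell from 22.1, 18.3 and 17.5 to 4.18, 4.8 and 3.05 CPM (-2.26 ± 0.22). LINC02292 (chr14:95330436-95330937) fell from a range of 11.8 to 15.3 CPM to one of 2.15 to 2.85 CPM (-2.48 ± 0.26), and by 1.70 with regional medians removed. LINC01929 (chr18:55124052-55124553) and LINC02156 (chr12:47408116-47408617) fell as well, with changes of -1.89 ± 0.25 and -1.75 ± 0.28.

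At 3 distal HCC2935 regions the control libraries together held 2 or 3 counts. LINC02229 (chr5:66454578-66455079) had 162 counts in DTP cells against 3, a ratio of levels of 36.4 (12.2 to 178). LINC00708 (chr10:8365993-8366494) had 137 against 3, a ratio of 30.8 (10.3 to 151). LINC01094 (chr4:78691837-78692338) had 99 in DTP and 240 in combo cells against 2, ratios of 33.4 (9 to 279) and 77.5 (21.2 to 643). The named distal regions that fell were those of LINC01163 (chr10:128191717-128192218), from 17.7, 18.6 and 21 to 2.28, 2.15 and 0.954 CPM (-3.37 ± 0.28), LINC01344 (chr1:182217912-182218413, -2.99 ± 0.27) and LINC02419 (chr12:130074781-130075282, -2.86 ± 0.28).

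No LINC region of HCC827 was called between DTP and control cells by edgeR's test, with 21 promoters and 150 other regions at an unadjusted p under 0.05 and 11 regions called by DESeq2. Over all regions 0.0158% were called higher and 0.00607% lower, and 0% of promoter regions in either direction. Libraries with the same replicate number deviated together in this line. With the number as a block 3 of 274 promoters and 49 of 1161 other regions were higher and 11 and 46 lower. All regions then gave 2.16% and 1.72%. This background was not split into promoters and other annotated regions, so nothing particular to LINC regions is read from it. The summed fit, which does not hold the larger spread of this line, called 258 in place of 0. Values of this line have the block where they say so.

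LINC01010 (chr6:134464549-134465050), 146 kb from the kinase gene SGK1, rose from 2.49, 3.18 and 2.53 to 15.8, 9.23 and 24.4 CPM (2.60, adjusted p = 0.000942 with the block, 0.13 without it). LINC01638 was higher here too, at a promoter region (chr22:27223490-27223991) with 5.98, 8.9 and 3.37 CPM in control and 18.6, 15.9 and 25.4 CPM in DTP libraries (1.79, adjusted p = 0.00751 with the block). LINC02136 (chr16:71426442-71426943) fell from 72.7, 49.6 and 77.1 to 18.6, 26.8 and 19.6 CPM (-1.64, adjusted p = 0.000882 with the block). LINC01119, which fell in PC9, went from 21.9, 20.4 and 29.5 to 7.88, 10.1 and 10.9 CPM (-1.33, adjusted p = 0.0216 with the block). LINC01843 (chr5:134506036-134506537) went from 52.8, 56 and 69.6 to 20.1, 15.1 and 41.2 CPM (-1.24, adjusted p = 0.00582 with the block).

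Farther from starts, a region of LINC01101 (chr2:120559456-120559957) rose from 4.48, 0.636 and 1.26 to 18.6, 20.1 and 46.6 CPM in HCC827 (3.66, adjusted p = 0.000146 with the block). A region of LINC01591 (chr8:135189822-135190323) fell from 28.9, 28.6 and 29.1 CPM to 6.45, 3.35 and 5.15 in DTP and 5.58, 1.87 and 2.97 in combo cells. For combo against control its change was -3.02 ± 0.44 without the block (adjusted p = 0.0385), and leaving out any control library or combo library 1 or 2 took the adjusted p to 0.126 to 0.343. A region of LINC01907 (chr2:230706117-230706618), low in H1975 DTP cells too, went from 36.9, 45.2 and 35.4 to 2.87, 8.39 and 14.2 CPM (-2.19, adjusted p = 0.00279 with the block).

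**Figure D2:**
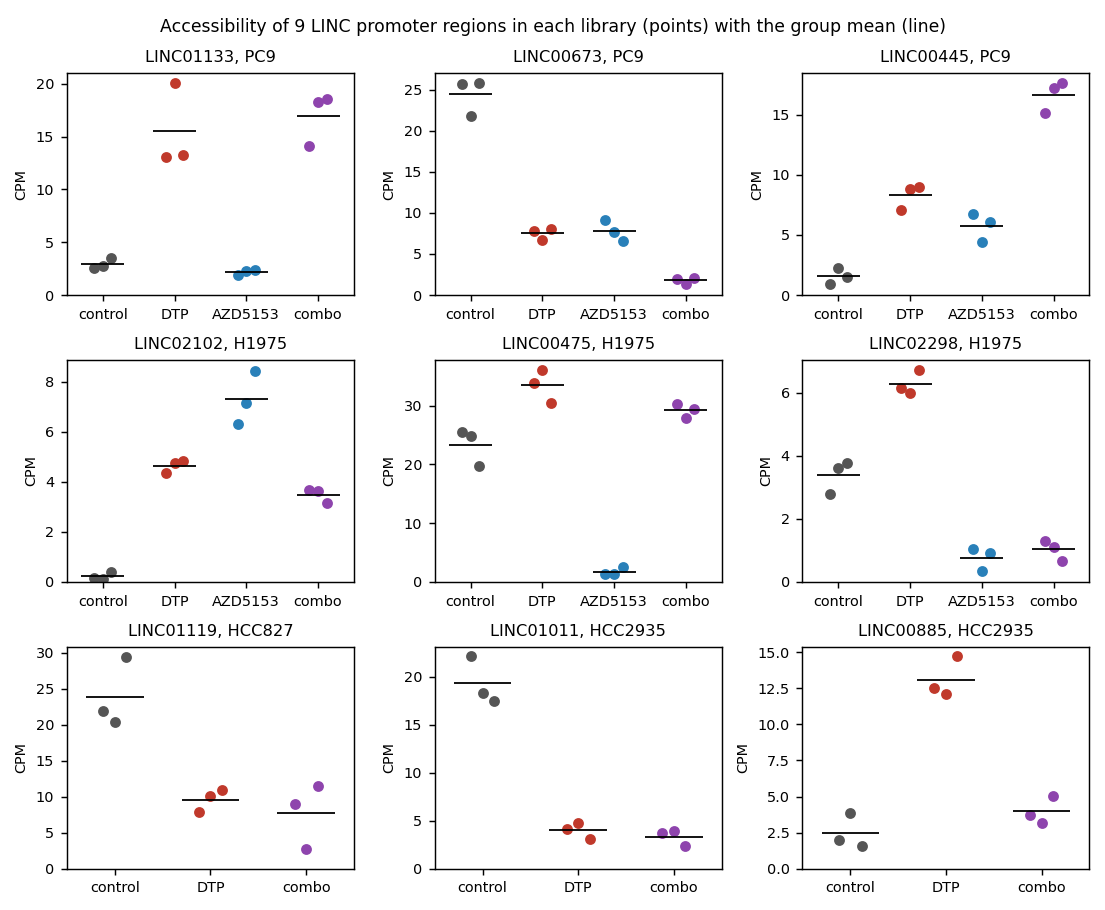
Each panel shows 1 LINC promoter, with a point for each library in CPM and a line at the group mean. LINC01133 in PC9 is at 2.54 to 3.47 CPM in control and 13.1 to 20.1 in DTP libraries, and LINC00475 in H1975 is at 1.29 to 2.51 CPM with AZD5153 and above 19 in the other groups.

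With AZD5153 after osimertinib, more LINC promoters were higher than lower in 3 lines. In PC9 99 promoters were higher and 60 lower in combo than in DTP cells. Outside promoters 13.6% and 19.9% of LINC regions were, against 14.3% and 16.7% of all other annotated regions. All LINC regions gave 465 and 596 (14.2% and 18.1%), against 10.6% and 11.7% of all regions. With libraries summed the PC9 calls fell from 1061 to 438. In H1975 191 promoters were higher and 51 lower. Outside promoters 22.3% and 12.3% of LINC regions were, against 18.5% and 13% of all other annotated regions. All LINC regions gave 916 and 452 (23.6% and 11.7%), against 11.5% and 9.48% of all regions. The summed fit called 369 of these instead of 1368, of which 203 were higher. In HCC2935 36 promoters were higher and 25 lower. Of the other LINC regions 98 and 355 were (3.35% and 12.1%), against 2.15% and 13.1% of all other annotated regions. All LINC regions gave 3.92% and 11.1%, against 1.9% and 6.4% of all regions. Without DTP library 1, DTP library 2 or combo library 2 the HCC2935 calls went from 514 to 320, 263 and 323, and with libraries summed to 299. In HCC827 no LINC region was called, with 8 promoters and 71 others at an unadjusted p under 0.05 and 0 by DESeq2. All regions gave 0% and 0% there, or 0% higher and 0.0304% lower with the block, when 1 LINC region was called, and the summed fit called 85. Promoters in general leaned the same way in this comparison, with 17.2% higher and 9.5% lower in PC9, 28.1% and 6.46% in H1975 and 5.33% and 3.17% in HCC2935, so the lean is not particular to LINC promoters. DTP cells are the reference here and the treated group above, so the changes of 1 region in these comparisons share libraries.

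LINC02579 (chr2:64607733-64608234) went from 4.13, 7.48 and 5.26 CPM in DTP to 17.8, 14.3 and 12.5 CPM in combo cells of PC9 (1.42 ± 0.20). LINC01991 (chr3:187975607-187976108) rose from 8.51, 6.7 and 7.26 to 18.8, 21.5 and 17.8 CPM (1.36 ± 0.17). The promoter region of LINC00673 described above fell further from DTP to combo cells, with a change of -2.04 ± 0.30, and LINC02090 (chr17:16988168-16988669) changed by -1.44 ± 0.36. A distal region of LINC01447 (chr7:47601351-47601852), 18.8 kb from TNS3, a focal adhesion gene, stepped down through the groups. It read 43.5, 41.8 and 32.5 CPM in control, 23.9, 20.9 and 21.8 with AZD5153, 9.48, 9.54 and 8.51 in DTP and 2.68, 1.06 and 1.6 in combo libraries, and no 2 groups overlapped. Its change from control to combo was -4.41 ± 0.20 (adjusted p = 1.94e-81). LINC01553 (chr10:59966968-59967469) fell with AZD5153 in either state, from a range of 8.68 to 11.4 CPM to one of 0.957 to 2.58 CPM without and from a range of 9.02 to 12.6 CPM to one of 1.06 to 2.93 CPM after osimertinib. LINC01607 (chr8:79799426-79799927), 31.7 kb from the Notch target gene HEY1, rose from a range of 0.751 to 2.19 CPM to one of 9.32 to 10.1 CPM (2.59 ± 0.29).

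In H1975 the promoter of LINC00880 (chr3:157129005-157129506), 13.6 kb from the cyclin gene CCNL1, rose from 7.42, 6.01 and 6.94 to 19.8, 22.2 and 25.6 CPM (1.74 ± 0.12, adjusted p = 2.12e-30). The promoter of LINC02298 (chr14:105095317-105095818) fell from 6.14, 6.01 and 6.72 to 1.31, 1.12 and 0.675 CPM (-2.61 ± 0.26). LINC00702 (chr10:4242507-4243008) rose by 1.59 ± 0.21 and LINC01341 (chr1:246781998-246782499) changed by -1.58 ± 0.26. A distal region of LINC00211 (chr2:37816004-37816505) that had gone from a range of 7.42 to 8.49 CPM to one of 0.448 to 0.567 CPM in DTP cells came back in part, to 2.59 to 3.02 CPM. The promoter of LINC00885 in HCC2935 (chr3:196142297-196142798) lies 54.7 kb from ZDHHC19 and 60.2 kb from the transferrin receptor gene TFRC. It was higher in DTP than in control cells and lower again in combo cells. Its libraries read 1.97, 3.84 and 1.56 CPM in control, 12.5, 12.1 and 14.7 in DTP and 3.72, 3.17 and 5.03 in combo cells, and combo against DTP gave -1.74 ± 0.23 (adjusted p = 1.05e-06). Combo against control gave 0.68 ± 0.34 (adjusted p = 0.106). Distal regions of LINC00964 (chr8:124856646-124857147) and LINC02004 (chr3:134337057-134337558) fell in the same comparison, from a range of 11.8 to 16 CPM to one of 1.12 to 1.41 CPM and from a range of 7.41 to 10.7 CPM to one of 1.21 to 1.49 CPM. LINC01234 (chr12:113773552-113774053) rose from a range of 1.53 to 3.04 CPM to one of 3.75 to 6.64 CPM (adjusted p = 0.0177), and was not called by DESeq2 (adjusted p = 0.105) or without DTP library 3 (0.0997) or combo library 3 (0.0974).

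Against control cells, combo cells had 861 LINC regions higher and 1057 lower in PC9 (26.2% and 32.2%), against 23.3% and 23.4% of all regions. The counts were 1222 and 1664 in H1975 (31.5% and 42.9%, against 27.2% and 28.6%) and 1020 and 1065 in HCC2935 (29.8% and 31.1%, against 20.7% and 21.6%). Outside promoters 25.9% of LINC regions were higher and 34.7% lower in PC9, against 23.6% and 35.4% of all other annotated regions. Such shares were 29.6% and 45.6% in H1975, against 28% and 43.2%. They were 28.7% and 32.8% in HCC2935, against 25.2% and 32.5%. In HCC827 0 were higher and 4 lower, beside 0.0364% and 0.121% of all regions. Without combo library 3 it was 7 in all, and without any other control or combo library 0, while the summed fit called 282. With the block 2 of 274 promoters and 30 of 1161 other LINC regions were higher and 34 and 116 lower there, beside 1.7% and 4.71% of all regions. Here too the block background was not split by class. LINC02388 (chr12:58756729-58757230), an exonic region, fell most of the named H1975 regions, from 24.9, 18.3 and 22.1 to 0.262, 0.249 and 0.338 CPM (-6.17 ± 0.25). LINC02230 (chr5:73318367-73318868) fell most of the named HCC2935 regions, from 17.5, 14.8 and 19.1 to 0.929, 0.577 and 1.01 CPM (-4.36 ± 0.31). LINC01098 (chr4:177728183-177728684) in HCC827 went from a range of 15.4 to 16.9 CPM to one of 1.87 to 4.88 CPM (-2.26, adjusted p = 0.00138 with the block).

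AZD5153 alone lowered most of the LINC regions that it changed in H1975, as it did regions away from promoters in general. There 794 LINC regions were higher and 2091 lower than in control cells (20.5% and 53.9%). Of all regions tested 26.7% were higher and 31.4% lower. Outside promoters 18.9% of LINC regions were higher and 56.5% lower, against 20.4% and 54.1% of all other annotated regions. Among LINC promoters 178 were higher and 254 lower, 28.6% and 40.8%, while of all promoter regions 43.9% were higher and 24.4% lower. The median change of LINC promoters was -0.10, beside 0.20 over all promoters. With the medians of 10 Mb bins removed the promoter counts were 197 and 222. The other LINC regions gave 616 and 1837, a median of -0.61 beside -0.52 over all other annotated regions. Their library medians were 6.74 to 6.96 CPM in control, 4.35 to 4.64 with AZD5153, 4.99 to 5.56 in DTP and 5.36 to 5.52 in combo cells. In PC9 AZD5153 alone gave 618 LINC regions higher and 742 lower (18.8% and 22.6%, against 11.2% and 14.6% of all regions). Of these 99 and 98 were promoters (16.9% and 16.8%, against 10.3% and 12.3% of all promoters). Outside promoters 19.2% and 23.9% of LINC regions were called, against 17.1% and 22.4% of all other annotated regions. The summed fit called 763 LINC regions in place of 1360.

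The H1975 promoter of LINC00475 (chr9:92151898-92152399), 36.5 kb from SPTLC1, a subunit gene of serine palmitoyltransferase, was low with AZD5153 alone and in no other group. Its libraries read 25.5, 24.8 and 19.7 CPM in control, 1.29, 1.39 and 2.51 with AZD5153, 33.9, 36 and 30.5 in DTP and 30.2, 27.8 and 29.5 in combo cells (-3.68 ± 0.17 for AZD5153 against control, adjusted p = 5.88e-54). LINC00426 (chr13:30376267-30376768) was also low with AZD5153 alone. It held 3 counts over the AZD5153 libraries, and its level was 33.1 times higher in control (11 to 163), 67.3 times in DTP (22.8 to 329) and 52 times in combo cells (17.5 to 255). An intronic region of LINC01393 (chr7:115146165-115146666) had 13.5, 9.95 and 11.6 CPM in control, 0.129, 0 and 0.342 with AZD5153 and 18.9, 18.2 and 18.4 in combo cells. LINC02017 (chr3:55160411-55160912), 85.9 kb from CACNA2D3 and 305 kb from the Wnt ligand gene WNT5A, went the other way. It read 0.619, 0.404 and 0.539 CPM in control, 20.6, 22.3 and 17.6 with AZD5153, and 1.84, 2.49 and 2.7 CPM in combo cells. A distal region of LINC01929 (chr18:55087905-55088406) fell from a range of 10.8 to 13 CPM to one of 0.174 to 0.258 CPM.

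The 4 PC9 regions picked for the largest falls with AZD5153 alone were nearer to control in combo cells. The LINC00673 promoter, LINC01447 and LINC01553 described above, picked for other comparisons, were about as low or lower there. The choice in part sets this contrast, so no difference in behaviour is read from it. LINC02652 (chr10:28496575-28497076) read 4.45, 6.85 and 5.46 CPM in control, 0.957, 0.464 and 1.17 with AZD5153 and 4.15, 6.89 and 4.8 in combo libraries (-2.67 ± 0.39 for AZD5153 against control). LINC01093 (chr4:184894144-184894645), 67.5 kb from ACSL1, a gene of fatty acid activation, read 9.21, 8.87 and 9.18 CPM in control, 1.68, 1.86 and 1.64 with AZD5153 and 6.83, 5.83 and 5.33 in combo libraries, which were below control (adjusted p = 0.0193). Distal regions of LINC02760 (chr11:37987904-37988405) and LINC02514 (chr4:187354764-187355265) changed with AZD5153 by -3.50 ± 0.44 and -3.20 ± 0.34. They were at 4.31 to 7.94 and 7.61 to 10.2 CPM in control and 6.36 to 7.32 and 7.07 to 8.48 CPM in combo libraries, with ranges that overlapped in each case. Rises with AZD5153 included LINC02204 (chr15:70569758-70570259, 2.63 ± 0.29) and LINC00598 (chr13:40518475-40518976, 2.12 ± 0.25), the latter 36.7 kb from FOXO1.

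Whether the AZD5153 change differed between DTP and untreated cells was tested as an interaction, the change from DTP to combo less the change from control to AZD5153. In PC9 377 LINC regions had a higher and 380 a lower value (11.5% and 11.6%, against 7.32% and 6.46% of all regions), and the summed fit called 293 in place of 757. Outside promoters the LINC shares were 11.6% and 12.6%, against 12% and 10.7% of all other annotated regions. In H1975 1948 were higher and 573 lower (50.3% and 14.8%, against 24.4% and 18.2% of all regions). Outside promoters there the LINC shares were 52.1% and 14.3%, against 48.3% and 15.9% of all other annotated regions. Among LINC promoters there 254 were higher and 107 lower, 40.8% and 17.2%, while all promoters gave 25.6% and 26.7%. LINC01213, whose PC9 promoter (chr3:150238289-150238790) read 16.5, 15.5 and 16.4 CPM in control and 5.03, 3.48 and 3.52 with AZD5153, rose from 11.4, 10.6 and 11.8 CPM in DTP to 21.2, 16.7 and 18.4 in combo cells (adjusted p = 5.32e-05). Its interaction was 2.74 ± 0.26 (adjusted p = 1.9e-21).

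The direct comparisons of osimertinib groups with AZD5153 alone gave large counts. Combo against AZD5153 called 875 LINC regions higher and 993 lower in PC9 (26.6% and 30.2%, against 22.5% and 20.5% of all regions). It called 1859 and 1063 in H1975 (48% and 27.4%, against 31.2% and 29.9%). Outside promoters the LINC shares were 26.4% and 32.4% in PC9, against 25.4% and 32.9% of all other annotated regions. They were 48.4% and 27.8% in H1975, against 46.4% and 29.1%. DTP against AZD5153 called 866 and 941 in PC9 (26.4% and 28.7%, against 19.3% and 17.9% of all regions). It called 1762 and 1155 in H1975 (45.5% and 29.8%, against 32.3% and 30.1%). Outside promoters the LINC shares were 27.4% and 30.5% in PC9, against 22.4% and 31.1% of all other annotated regions. They were 46.4% and 29.1% in H1975, against 45.5% and 30.1%. Among H1975 promoters DTP against AZD5153 gave 251 higher and 207 lower (40.4% and 33.3%, against 26.3% and 43.4% of all promoters), and 199 and 240 with regional medians removed, so the majority there depends on that step. LINC01599 (chr14:50038501-50039002) stood at 26.7, 28 and 24.1 CPM with AZD5153 and 2.23, 2.12 and 2.7 in combo cells of H1975 (-3.45 ± 0.15). LINC01173 (chr2:234694464-234694965) stood at 29, 31.3 and 32.8 CPM with AZD5153 and 4.62, 3.09 and 1.5 in DTP cells of PC9 (-3.32 ± 0.18). LINC01630 (chr18:51531438-51531939) held 1 count over the AZD5153 libraries of H1975, with 168 in DTP and 187 in combo libraries, ratios of 146 (25.9 to 5811) and 170 (30.1 to 6738).

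The other regions picked by the same rule are given by their change alone. In PC9, LINC02038 (chr3:193832104-193832605) rose by 1.53 ± 0.28 from DTP to combo cells. LINC02709 (chr11:9759537-9760038), 6.54 kb from SWAP70, was lower in combo than in AZD5153 cells (-2.17 ± 0.25), and LINC01562 (chr1:51235004-51235505), 0.768 kb from RNF11, was lower in DTP than in AZD5153 cells (-1.78 ± 0.26). In H1975 LINC00886 (chr3:156818077-156818578) rose from DTP to combo cells (1.84 ± 0.22) and LINC01094 (chr4:78710471-78710972) fell (-2.22 ± 0.25). LINC02513 (chr4:38314160-38314661) was lower in combo and LINC02551 (chr11:130798259-130798760) lower in DTP than in AZD5153 cells, with changes of -3.57 ± 0.20 and -3.46 ± 0.18. An intronic region of LINC01091 (chr4:123832275-123832776) held 2 counts in the control and 126 in the AZD5153 libraries of H1975, a ratio of 60.3 (16.4 to 504). In HCC2935 LINC00636 (chr3:107927427-107927928) and LINC02257 (chr1:221913367-221913868) rose from DTP to combo cells by 1.02 ± 0.21 and 1.33 ± 0.23, and LINC00824 (chr8:128428113-128428614) changed by -1.40 ± 0.24. In HCC827 with the block, LINC00824 (chr8:128322628-128323129) was the region called between DTP and combo cells (-1.47, adjusted p = 0.028 with the block). LINC02026 (chr3:194003489-194003990) and LINC02894 (chr8:94623307-94623808) were lower and LINC00384 (chr13:30142433-30142934) and LINC02873 (chr11:130677432-130677933) higher in DTP than in control cells of that line.

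The loci described next are LINC genes with most called regions for DTP against control in a line, with the block in HCC827. This choice favours genes with many regions and many calls. The counts are to be read beside the shares of all LINC regions called, 46.8% in PC9, 72.5% in H1975 and 52.8% in HCC2935. Regions of some loci changed mostly in the same direction, while others, as LINC00673 in H1975, were mixed. Joint movement within a gene was not tested. LINC00662, on chr19:27738635-27776439 with no protein-coding gene nearer than UQCRFS1 at 1429 kb, had 22 tested regions in H1975 and none in the other lines. In DTP cells 21 rose and 1 fell, with a median change of 4.15. Their summed level was 19, 14.1 and 16.7 CPM in control, 171, 167 and 180 in DTP, 12.1, 14.6 and 12.8 with AZD5153 and 57.5, 59.8 and 59 in combo libraries, and all 22 were lower in combo than in DTP cells (median -1.49). With AZD5153 alone 0 rose and 2 fell. The strongest of them (chr19:27738635-27739136) read 0.619, 0 and 0.27 CPM in control and 18.3, 23 and 23.5 in DTP libraries (6.19 ± 0.26).

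LINC02298, on chr14:105079475-105119422 between the receptor gene GPR132 (14 kb) and the Notch ligand gene JAG2 (21.6 kb), had 27 regions in H1975, all higher in DTP cells (median 1.00). The summed level was 292, 288 and 305 CPM in control, 655, 525 and 603 in DTP, 159, 154 and 156 with AZD5153 and 332, 347 and 335 in combo libraries. AZD5153 lowered 26 of the 27 in untreated cells (median -1.47) and 25 in DTP cells (median -1.94). In PC9 2 of 10 regions of this gene were higher and 1 lower in DTP cells. In HCC2935 4 of 12 were higher and 3 lower, or 10 and 0 with regional medians removed.

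LINC00673, whose locus on chromosome 17 lies 263 kb from SOX9, had 27 regions in PC9, 3 higher and 15 lower in DTP cells (1 and 8 with libraries summed). Their sum went from 475, 470 and 483 CPM in control to 318, 335 and 319 CPM in DTP libraries. The gene had 10 of 33 regions higher and 14 lower in H1975, 2 and 4 of 26 in HCC2935 and, in HCC827, none of 13 without the block and 0 and 1 with it. LINC01819, 151 kb from ZFP36L2, an RNA-binding protein gene, had 0 higher and 13 lower of 21 in PC9 (median -0.76), with a sum of 241, 218 and 228 CPM in control and 127, 130 and 131 CPM in DTP libraries. LINC01121 lies 59 kb from SRBD1 and 110 kb from the homeobox gene SIX2. It had 1 higher and 13 lower of 20 in PC9, or 1 and 7 with regional medians removed and 1 and 6 with libraries summed. It had 3 and 8 of 15 in H1975 and 1 and 6 of 9 in HCC2935.

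**Figure D3:**
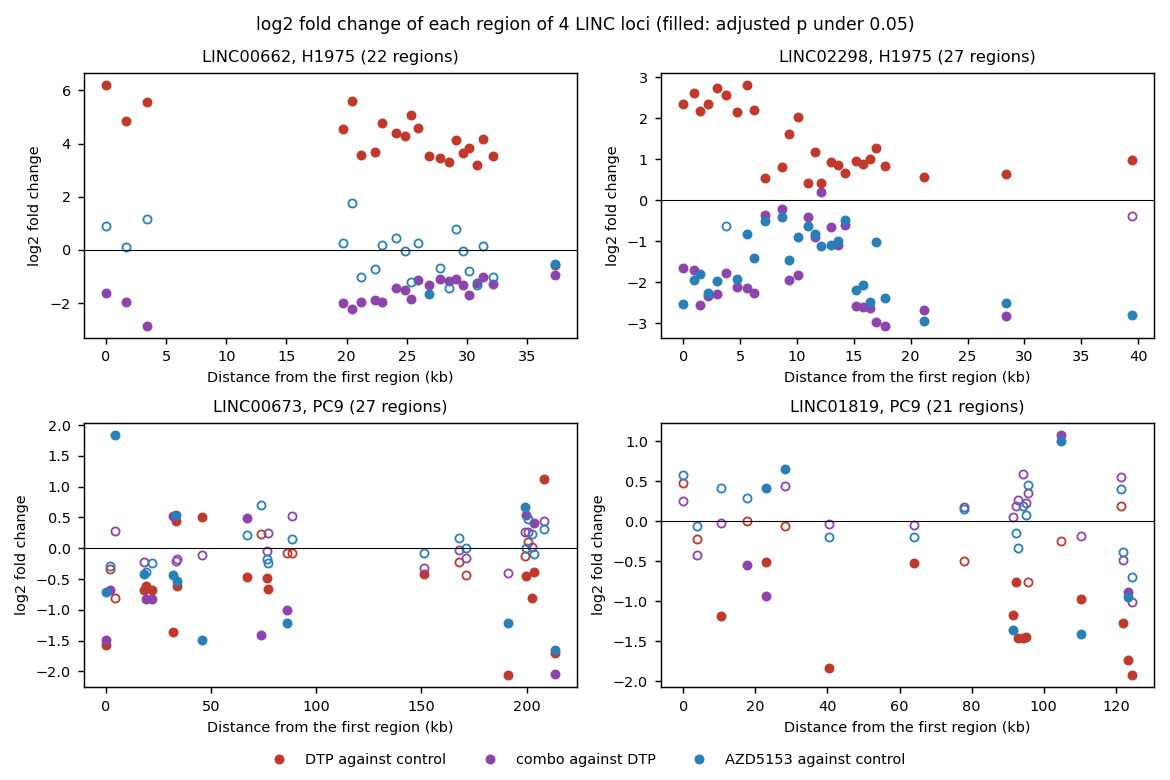
Points are the LINC regions of 4 loci, placed by distance along the locus in kb, with the log2 fold change of 3 comparisons and filled symbols where called. In H1975 the LINC00662 regions rose in DTP cells with a median of 4.15, and the LINC02298 regions rose in DTP cells (median 1.00) and fell with AZD5153 (median -1.47).

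In HCC2935, LINC02615 on chromosome 4 had 15 regions higher and 3 lower of 25 (median 0.96, or 0.39 with regional medians removed), and its sum went from 128, 126 and 143 to 214, 212 and 196 CPM. LINC00523 on chromosome 14, 32.5 kb from the Notch-related gene DLK1, had 0 higher and 14 lower of 15 (median -1.29), with sums of 206, 193 and 186 CPM in control and 85.7, 83.5 and 76.7 CPM in DTP libraries. With regional medians removed 1 was higher and 4 lower (median -0.42). LINC01220 and LINC02292 are on the same chromosome and their falls were also smaller after that step. Neighbouring regions thus moved with these members, and the part of chromosome-wide shifts in them was not tested. LINC02915 had 9 higher and 4 lower of 18, or 5 and 7 with regional medians removed. LINC01843, whose promoter fell in HCC827, had all 6 regions lower in H1975 DTP cells and all 6 lower with AZD5153 (medians -1.16 and -1.61), 3 of 5 lower in HCC2935 and 2 of 6 in PC9. In HCC827 with the block it had 0 higher and 3 lower of 5. There LINC01549 had 3 higher and 1 lower of 8, and LINC02389 2 and 0 of 34. Without the block no region of these genes was called in DTP cells of HCC827.

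Between lines, 2112 LINC regions of PC9 were matched by a reciprocal overlap of at least 50% and tested in PC9, H1975 and HCC2935. In DTP against control 101 were higher in all 3 (4.78%, against 3.04% over all matched regions) and 149 lower in all 3 (7.05%, against 4.3%), and 13 and 12 of these were promoters. A further 88 were called in all 3 with mixed directions (4.17%, against 2.37%). All matched regions include regions with no annotation and were not split by class, so these gaps are not read as particular to LINC regions. For DTP against control in PC9 alone, 49.3% of other LINC regions, 46.8% of all other annotated regions and 31.7% of all regions were called. LINC02871 (chr20:10982543-10983044 in PC9) rose from 1.27, 0.507 and 0.992 to 6.8, 6.45 and 5.01 CPM in PC9 (2.72 ± 0.39), by 3.50 ± 0.37 in H1975 and by 2.47 ± 0.57 in HCC2935. LINC02554 (chr22:27386130-27386631) rose in the same 3 lines, by 2.13 ± 0.18, 5.38 ± 0.30 and 2.05 ± 0.41. In HCC827 its levels were 2.49, 0.636 and 0 CPM in control and 7.17, 9.23 and 18.7 in DTP libraries (3.47 ± 0.77 without the block, not called, and 3.51 with it, adjusted p = 0.00211), and its size differed between lines (adjusted p = 0.000176 for the interaction of DTP with line). LINC01812 (chr2:67841637-67842138) rose by 2.32 ± 0.39, 2.78 ± 0.49 and 2.03 ± 0.42.

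A further pair of regions rose in all 3 lines from almost no counts in H1975 control cells, so that levels are given in place of a fold there. LINC00707 (chr10:6659505-6660006) read 0 CPM in all H1975 control libraries and 1.15, 1.13 and 1.9 CPM in DTP libraries, with 1.59, 2.28 and 1.49 CPM in control and 8.02, 8.25 and 7.26 CPM in DTP libraries of PC9. LINC01930 (chr1:97999273-97999774) read 0, 0.135 and 0 CPM in control and 1.92, 1.02 and 1.9 CPM in DTP libraries of H1975, and in PC9 rose by 2.53 ± 0.34.

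Of the regions lower in all 3, LINC02020 (chr3:186414872-186415373) fell from 22.9, 23.4 and 23.6 to 1.79, 2.84 and 2.57 CPM in H1975, with changes of -3.27 ± 0.32 in PC9, -3.26 ± 0.16 in H1975 and -1.64 ± 0.33 in HCC2935. LINC01232 (chr13:99467719-99468220) fell from 6.99, 5.58 and 8.18 to 0.972, 0.516 and 0.501 CPM in PC9, and LINC01754 (chr20:47431810-47432311) from 6.99, 8.62 and 7.19 to 2.43, 2.06 and 2.75 CPM. LINC02399 (chr12:89951183-89951684) changed by -1.97 ± 0.44, -2.95 ± 0.22 and -1.79 ± 0.25, and by -1.26 ± 0.45 in HCC827, where it was called neither without the block nor with it (adjusted p = 0.0877). LINC02889 (chr7:17533061-17533562) fell from 30.6, 26.4 and 29.5 to 7.93, 6.8 and 6.72 CPM in H1975 and stood at 8.47, 10.8 and 13.9 CPM in control and 10, 8.39 and 13.5 CPM in DTP libraries of HCC827 (-0.04 ± 0.50), and its change differed between lines (adjusted p = 5.21e-05).

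**Figure D4:**
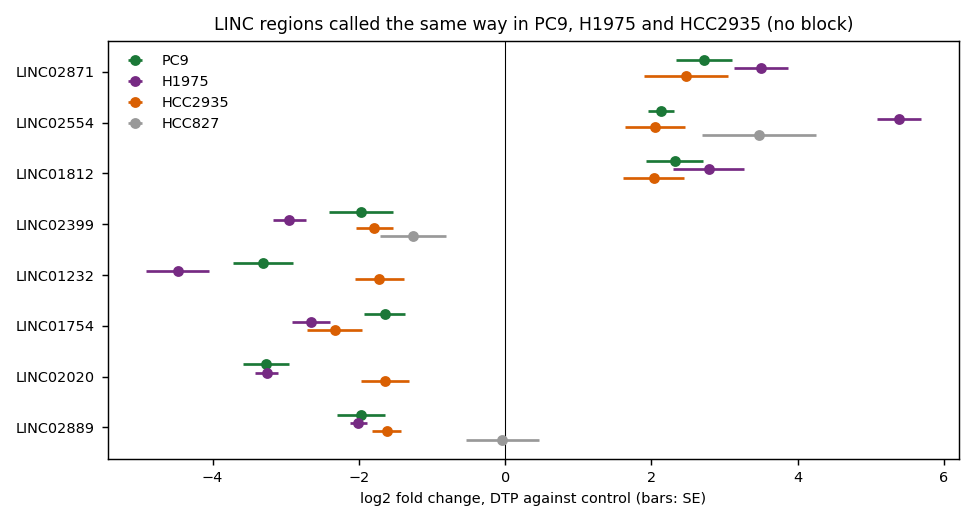
Points give the log2 fold change of DTP against control with its SE, all without the replicate block, for 8 matched LINC regions in each line where the region was tested. LINC02554 rose in PC9, H1975 and HCC2935, and LINC02889 fell in those lines with a change of -0.04 in HCC827.

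The test that the DTP change was equal in the 4 lines was made for 2072 matched LINC regions. It called 1097, or 52.9%, while 37.2% of all matched regions were called, and 701 without the libraries numbered 1 and 704 without those numbered 2. Of 1910 LINC regions also tested in the 3 lines one by one, 228 were called by this test and in opposite directions in 2 of the lines (11.9%, against 8.35% of all such regions). Both backgrounds include regions with no annotation and were not split by class, so neither gap is read as particular to LINC regions. LINC02246 (chr21:14911359-14911860) rose from 4.77, 5.07 and 6.2 to 12.6, 10.8 and 13 CPM in PC9 and fell from 13.6, 14.7 and 12 to 1.02, 0.794 and 0.784 CPM in H1975 (adjusted p = 6.26e-11 for the difference). LINC01559 (chr12:13390452-13390953) fell from 41, 44.6 and 42.4 to 30.4, 25 and 33.3 CPM in PC9 and rose from 1.31, 0.886 and 0.626 to 7.41, 6.12 and 5.92 CPM in HCC2935 (adjusted p = 7.22e-09). A region of LINC01101 (chr2:120540329-120540830) changed by -0.56 ± 0.10 in PC9 and rose from 0.309, 0.538 and 0.27 to 5.12, 5.9 and 8.62 CPM in H1975. LINC01904 (chr18:944346-944847) and LINC02443 (chr12:5177633-5178134) were of the same kind, with adjusted p of 3.01e-07 and 8.59e-06.

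A list of 22 LINC RNAs described in lung cancer was read at the promoter region with the highest mean level in each line. The region could differ between lines, as for LINC00511, read at chr17:72640457-72640958 in PC9, at chr17:72640347-72640848 in H1975, and at chr17:72614985-72615486 and chr17:72618070-72618571 for HCC827 and HCC2935. PC9 had 11 tested promoters of it, H1975 10, HCC827 9 and HCC2935 12. In DTP cells 4 rose and 2 fell in PC9, 2 and 4 in H1975, none was called in HCC827 with or without the block, and 3 rose and 2 fell in HCC2935, with median changes of 0.21, -0.17, 0.05 and 0.28. Of all promoters 15.1% were higher and 11% lower in PC9, 26.8% and 23.1% in H1975 and 21.2% and 11.9% in HCC2935. Of the 17 calls on the list 10 were lost with libraries summed, 4 by DESeq2 and 6 when some library was left out. LINC00511, described as raised in many carcinomas, rose in 3 lines, by 0.49 ± 0.15 in PC9, 0.77 ± 0.14 in H1975 and 1.14 ± 0.12 in HCC2935, and was 0.77 ± 0.37 in HCC827 (adjusted p = 0.219 with the block). The PC9 call was lost with libraries summed (adjusted p = 0.193), by DESeq2 (0.0504) and without DTP library 3 (0.111). Its HCC2935 libraries read 22.5, 30.7 and 22.2 CPM in control, 55.3, 50.6 and 59.3 in DTP and 36.1, 33.7 and 37.2 in combo cells. LINC00460, described as promoting migration, fell from 16.5, 16.3 and 15.9 to 8.19, 8.39 and 7.5 CPM in H1975 (-1.02 ± 0.13) and changed by -0.71 ± 0.28 in HCC2935, where the summed fit did not call it (adjusted p = 0.087), nor did the fits without control library 2 or 3 or any DTP library (0.0864 to 0.173).

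For the rest of the list, LINC01133 rose in HCC2935 as in PC9, by 0.78 ± 0.15, and LINC00665 rose in PC9, by 0.80 ± 0.13. LINC01234 rose in PC9 (0.54 ± 0.13) and H1975 (0.71 ± 0.18), the former not called with libraries summed. LINC00963 changed by -0.46 ± 0.14 in PC9 and -0.49 ± 0.08 in H1975 and by 0.31 ± 0.12 in HCC2935, all called and none called with libraries summed. The PC9 call was also lost without DTP library 2 (adjusted p = 0.118), and the HCC2935 one without any control library or DTP library 1 or 2 (0.0583 to 0.127). The fall of LINC00673 in H1975 was lost without DTP library 3 (0.0894), and that of LINC00472 in HCC2935 without any 1 control or DTP library (0.0615 to 0.328). From DTP to combo 5 promoters of the list rose and 0 fell in PC9, 6 and 0 in H1975, and 1 and 2 in HCC2935. In that comparison 17.2%, 28.1% and 5.33% of all promoters rose and 9.5%, 6.46% and 3.17% fell. AZD5153 alone raised 1 and lowered 1 in PC9 and raised 1 and lowered 5 in H1975, where the interaction was higher for 6 and lower for 0. Of all promoters AZD5153 raised 10.3% and lowered 12.3% in PC9 and 43.9% and 24.4% in H1975. The H1975 interaction was higher for 25.6% and lower for 26.7% of all promoters. LINC00511 showed the difference in H1975, with -0.74 ± 0.18 for AZD5153 in untreated cells and 0.36 ± 0.11 in DTP cells (interaction 1.09 ± 0.21, adjusted p = 2.8e-06).

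**Figure D5:**
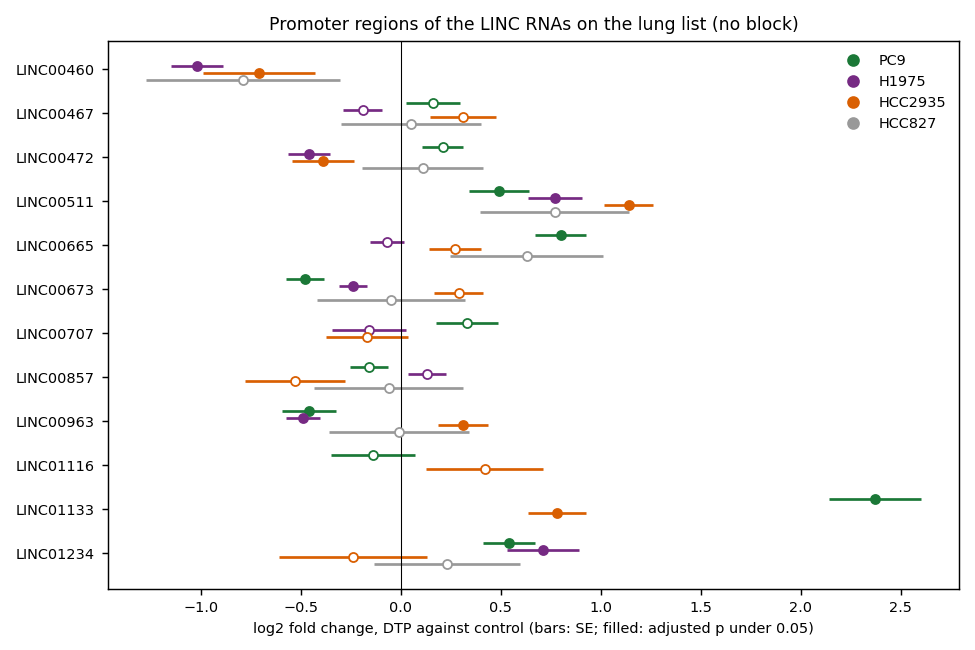
Points give the log2 fold change of DTP against control with its SE, all without the replicate block, for the promoter region of 12 LINC RNAs in each line that held one. LINC00511 was above 0 in all 4 lines, from 0.49 in PC9 to 1.14 in HCC2935, and LINC01133 was at 2.37 in PC9.

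LINC regions within 250 kb of the start of genes of the lung lineage, of EGFR signalling and of YAP or AP-1 programmes were counted. Of the 28 genes listed, 26 had a start in the gene table and 11 had a LINC region that near. Their counts are to be read beside the shares of other LINC regions called lower in DTP cells, 27.8% in PC9, 48.2% in H1975 and 27.2% in HCC2935, and higher, 21.5%, 26.5% and 27.5%. LINC01714, beside ERRFI1, an inhibitor of EGFR that is induced by it, had 0 regions higher and 10 lower of 16 in PC9 DTP cells and 0 and 9 of 11 in H1975 (medians -0.69 and -1.22), but 3 and 2 of 10 in HCC2935. LINC02458, beside DUSP6, an ERK phosphatase whose transcription follows ERK activity, had 2 of 3 regions lower in each of PC9, H1975 and HCC2935. LINC00910, beside the ETS factor gene ETV4, had 1 higher and 6 lower of 12 in PC9, 3 and 6 of 10 in H1975 and 0 and 3 of 9 in HCC2935. LINC02912, beside MYC, had 12 higher and 1 lower of 27 in H1975 DTP cells and 26 higher with AZD5153 alone (median 1.70), where its promoter lost most of its rise once the regional median was removed. Its DTP change was called at 0 of 2 regions in PC9, and its 1 region in HCC2935 was higher (1.02). Near FOXA2, 4 regions were higher and 11 lower of 18 in H1975 DTP cells, 3 higher and 0 lower of 9 in PC9, and 2 and 2 of 9 in HCC2935. Near JUN, 4 were higher and 7 lower of 22 in PC9, 5 and 7 of 14 in H1975, and 1 and 0 of 6 in HCC2935. LINC01013, within reach of CCN2, rose by 2.39 in H1975 and 1.18 in HCC2935, and in PC9 its change of 0.44 was not called. Near SOX9, 0 were higher and 2 lower of 4 in PC9, 2 and 4 of 7 in H1975 and 1 and 2 of 4 in HCC2935. Near CCND1, 0 were higher and 1 lower of 3 in PC9, 1 and 1 of 5 in H1975 and 1 and 2 of 5 in HCC2935. Near SOX4, 0 of 1 was called in PC9 and 1 of 4 was higher in HCC2935, and the 1 region near SOX2, in PC9, was not called.

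LINC promoters whose gene start lay within 1000 bases of a protein-coding start on the other strand, as in a divergent pair, were counted apart from the others for the DTP change. In PC9 12.1% of 33 such promoters and 37% of the 552 others were called, in H1975 45.5% of 33 and 61.8% of 589, and in HCC2935 33.3% of 30 and 42.5% of 468. No test was made of these shares, and the divergent promoters had the higher mean level (3.93 and 3.21 on the log2 CPM scale in PC9). For LINC promoters at least 5 kb from a coding start, the DTP change was set beside that of the nearest coding promoter within 100 kb. Pearson's r was 0.04 for PC9 (289 promoters), 0.17 for H1975 (326), 0.21 for HCC827 (106) and 0.35 for HCC2935 (244). The points of a line share libraries and regional shifts, and genes are not independent replicates.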

How the data were processed

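The labels give 42 ATAC-seq libraries of 4 lines, although the extract protocol in the labels describes a ChIP-seq of an acetylated histone. The libraries were read as ATAC-seq, as titles, design text and files say. Per the labels, the tools named for the processing were BWA 0.7.17, SAMtools 1.9, deepTools 3.4, MACS2 2.2.6, featureCounts 2.0.0 and ChIPseeker 1.29.1, with build hg38. The deposited tables hold raw read counts per region and library, and annotated tables give each region's nearest gene. The deposited peak lists carry fold enrichment and -log10 p and q values and were not used here.

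Counts were fitted for each line with all its groups in edgeR 4.0.16 (R 4.3.3), with filterByExpr, TMM scaling and the quasi-likelihood test, and adjusted by Benjamini-Hochberg over all tested regions. Calls have an adjusted p under 0.05. A fit over regions matched between the 4 lines tested whether the DTP change differed by line. DESeq2 1.42.0 and limma 3.58.1 served as alternatives, with the other settings given in the closing section. Python 3.11.15 with pandas 2.3.3 and matplotlib 3.10.9 made the tables and plots. Counting intervals are exact at 95% and cover counting error only.

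Libraries of HCC827 with the same replicate number deviated together, with correlations of the deviations from group means of 0.257 to 0.827 over 9 pairs. Libraries of other groups with another number ranged from -0.675 to 0.516. Block values are given for that line. Named regions were, for each contrast and class, the largest called changes with groups that did not overlap and a mean above the line's median, at most 1 region a gene. Added to these were the 3 genes with most called regions in each line, regions matched between lines, the most open promoter of each line, a list of 22 LINC RNAs described in lung cancer and LINC regions near 28 listed genes. The members and lists were chosen with earlier results of these data known. The fits were tested on simulated data. Values of LINC01450 are not reported here.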

Additional observations from a re-analysis of the deposited data

Results flagged for a closer look

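The change with AZD5153 differed between DTP and untreated cells at 757 LINC regions of PC9 and 2521 of H1975, by the interaction term of the fit. In PC9 the named regions were the promoters of LINC01213 (2.74 ± 0.258) and LINC01470 (-1.93 ± 0.407) and distal regions of LINC02537 (3.55 ± 0.512), 88.7 kb from VEGFA, and LINC02541 (-2.65 ± 0.377). The LINC02537 region read 3.81, 3.8 and 3.22 CPM in control, 0.479, 0.232 and 0.938 with AZD5153, 6.56, 5.93 and 8.51 in DTP and 9.76, 16.4 and 13.6 in combo libraries. LINC01470 read 2.22, 5.07 and 2.98, 5.98, 4.87 and 6.1, 5.35, 7.48 and 5.76 and 2.19, 3.45 and 2.13 CPM in the same order.

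In H1975 they were LINC00426 (4.52, fitted with 3 counts in the AZD5153 libraries), LINC02102 (-5.30 ± 0.444), LINC01393 (6.39 ± 0.357) and LINC02017 (-5.70 ± 0.389). LINC02102 and LINC02017 rose with AZD5153 in untreated cells, and LINC00426 and LINC01393 fell.

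The DTP change differed between lines at 1097 matched LINC regions, by the test of DTP with line, and 228 of these were called in opposite directions in 2 of PC9, H1975 and HCC2935.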

How the results depend on the processing

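Summing the libraries of each group and taking the dispersion of HCC2935 gave 976 calls for DTP against control in PC9, 438 for combo against DTP, 763 for AZD5153 and 293 for the interaction. The same setting gave 369 for combo against DTP in H1975, 299 in HCC2935, and 258, 85 and 282 for the 3 HCC827 comparisons (DTP against control, combo against DTP, combo against control). Of these 143 of 438 were higher in PC9 (465 of 1061 in the fit reported) and 203 of 369 in H1975 (916 of 1368). DESeq2 gave 591 for combo against DTP, 897 for AZD5153 and 419 for the interaction in PC9, 747 for combo against DTP in H1975, 215 in HCC2935 (25 higher), and 11 and 29 for DTP and combo against control in HCC827, where it moved the median of all regions to 0.11 for combo against control. With no filter on low counts HCC827 had 3 and 2 calls for these comparisons and HCC2935 283 for combo against DTP, and in HCC2935 994 of 1569 calls were higher for DTP and 1140 of 1889 for combo against control. Removing regional medians gave 2 and 15 in HCC827, and DESeq2 size factors gave 1 for combo against control.

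The replicate block gave 109, 1 and 182 calls in the 3 HCC827 comparisons, and moved no other count by over 1.5 times. Same-numbered libraries had correlations of -0.010 to 0.013 in PC9 and -0.062 to 0.015 in H1975, within the ranges of other numbers (-0.015 to 0.022 and -0.071 to 0.072). For HCC2935 the range was -0.074 to 0.206, against -0.189 to 0.101 for other numbers, so a weak pairing there is possible. The libraries that correlated best with their own number were 4 of 12 in PC9, 0 of 12 in H1975, 6 of 9 in HCC2935 and 7 of 9 in HCC827. Leaving out 1 library at a time gave 0 to 7 calls for combo against control in HCC827 and 263 to 367 for combo against DTP in HCC2935, and leaving out 1 replicate number gave 701 to 1039 for the difference between lines. Over the regions named for the largest changes and these alternatives 1615 values kept their direction and side of the threshold, 45 passed it newly and 8 no longer passed, and the 8 belong to LINC01591 in HCC827 and LINC01234 in HCC2935. Of the 45, 16 were block values of HCC827, the fit that picked those regions. The 276 values of regions called in 3 lines kept both. Both sets were chosen from these data for large or repeated calls, so their keeping was largely set by that choice. For the 17 lung list calls of DTP against control 154 values kept both and 38, from 10 of the calls, no longer passed. No value reversed. The cause of these differences was not tested beyond the change of setting. In PC9 and H1975 the libraries differ by little more than counting, so depth sets which small changes are called there.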
